A study of Mus musculus with 2 samples.

Results

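Heat shock proteins and other chaperones were followed in CD4 T cells from the colon of mice with transfer colitis. A symbol rule took the Hspa, Hspb, Hspd, Hspe, Hsph and Hsp90 genes, the Dnaja, Dnajb and Dnajc genes, Bag1 to Bag6, the Cct genes, Tcp1 and Hsf1. It found 74 of the 11971 genes in the deposited table, and used no measured value. By textbook role, 7 were assigned to the classic stress-inducible genes, 28 to other cytosolic chaperones and co-chaperones, 8 to the cytosolic chaperonin, 14 to the endoplasmic reticulum (ER), 8 to mitochondria, 4 to the nucleus and 5 to none of these.

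The recipients were Rag-/- mice, which lack mature T and B cells of their own. In 6 mice the transferred CD4 T cells were wild type (CD45RB high, CD25 negative), and in 6 they were deficient in BCL-6, the repressor that drives the fate of follicular helper T cells. These groups are called WT and KO recipients. The labels give neither the age of the mice, nor the time after transfer, nor how Bcl6 was removed. Colons were dissociated, cells with TCR beta and CD4 on their surface were sorted, and each mouse's cells were given a hashtag antibody before all were pooled in 1 library. The mouse was the replicate.

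Chaperones bind unfolded or partly folded proteins and keep them from aggregating. HSP70 proteins (the Hspa genes) work in cycles driven by ATP, with J-domain partners (the Dnaj genes) that bring the client and exchange factors (Hspbp1, Hsph1 and the Bag genes) that release the nucleotide. HSP90 proteins finish the folding of kinases and receptors, the chaperonin TRiC (Tcp1 and the Cct genes) folds actin and tubulin in a closed chamber, and Hspd1 with its lid Hspe1 does the like in mitochondria. Stress in the cytosol is read by the transcription factor HSF1, which binds heat shock elements made of inverted repeats of GAA. Stress in the ER is read by the unfolded protein response, which acts on Hspa5 through another element.

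The upstream DNA of the genes that differed most is shown because Hspa1a and Hspa1b are near-copies. The windows were also searched for the letters of the elements named above for cytosolic and ER stress. A match of letters does not show that an element is used. The sequences are from RefSeq (GRCm38.p6), 5′ to 3′ on the gene's strand, and give the 250 bases before the annotated start. Capitals mark the motif GAANNTTC, a pair of inverted GAA units, or the same pair as TTCNNGAA. Hspa1a lies at chr17:34969190-34972156 on the minus strand and its window at chr17:34972157-34972406. Hspa1b lies at chr17:34956436-34959238 on the same strand, with its window at chr17:34959239-34959488. Hspb1, which codes for the small heat shock protein HSP25, lies at chr5:135887919-135889563 on the plus strand, with its window at chr5:135887669-135887918.
Hspa1a: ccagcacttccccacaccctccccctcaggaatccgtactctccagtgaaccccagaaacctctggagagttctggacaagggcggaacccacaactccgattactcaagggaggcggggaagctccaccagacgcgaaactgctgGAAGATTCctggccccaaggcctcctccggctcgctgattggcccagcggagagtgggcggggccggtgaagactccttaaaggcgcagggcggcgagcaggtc
Hspa1b: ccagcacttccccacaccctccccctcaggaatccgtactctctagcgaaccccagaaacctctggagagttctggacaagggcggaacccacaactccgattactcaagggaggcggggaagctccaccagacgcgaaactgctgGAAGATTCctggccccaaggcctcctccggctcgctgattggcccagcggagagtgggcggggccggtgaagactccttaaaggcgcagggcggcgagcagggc
Hspb1: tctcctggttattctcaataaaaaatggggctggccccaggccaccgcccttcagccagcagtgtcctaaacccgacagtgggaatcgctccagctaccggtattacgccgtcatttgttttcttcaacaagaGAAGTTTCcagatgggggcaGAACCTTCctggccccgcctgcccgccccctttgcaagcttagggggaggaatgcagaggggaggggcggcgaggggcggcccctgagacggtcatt

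The Hspa1a and Hspa1b windows were identical at 247 of 250 bases, and the first 300 bases of their longest transcripts at 297. Counted from 1 at the 5′ end of the window, with the base of Hspa1a first, the differences were C44T, T47C and T249G. The library read the 5′ end of transcripts, so reads of the 2 genes can hardly be told apart, and their counts are given separately only as deposited. Both windows held GAANNTTC at bases 104 to 97 before the start. The Hspb1 window held it at 117 to 110 and again at 97 to 90 bases before the start.

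Only short runs are printed for Hspe1 and Hspa5, whose windows reach into annotated exons. In Hspe1 the run at chr1:55088059-55088076 joins 3 overlapping pairs of units, and in Hspa5 the run at chr2:34772025-34772043 is the ER stress element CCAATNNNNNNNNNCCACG.
Hspe1: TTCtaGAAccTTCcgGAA
Hspa5: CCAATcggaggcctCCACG

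Windows were matched for 60 of the 74 members. GAANNTTC or TTCNNGAA, which both read the same on either strand, stood in 17 of the 79 windows of these members (21.5%) and in 12.8% of all 32851 windows. Some genes have several windows, and by gene the matches were in 15 of the 60 members. The longer run of GAANNTTCNNGAA or TTCNNGAANNTTC was in Hspe1, Hspd1 and Dnajb6 and in 0.466% of all windows. The windows of Hspe1 and Hspd1 hold the same run on opposite strands, and those of Dnajb6 overlap at theirs. The counts of windows, and for Hspe1 and Hspd1 also of genes, therefore hold shared bases more than once. The ER element, on either strand, was in Hspa5, Hsp90b1 and Dnajc3 and in 0.113% of all windows. Neither form of the GAA pair was found in the windows of Dnajb1, Bag3 or Hspbp1, which says only that these letters are not there.

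The table held 57634998 UMIs (unique molecular identifiers, 1 per captured transcript) in 18860 cells, with 1409 to 1736 cells and 4252124 to 5523025 UMIs per mouse. Levels below are UMIs per 1000000 UMIs summed over the cells of a mouse (CPM), and UMIs are not scaled by transcript length. KO recipients had median depths of 2381 to 2997 UMIs per cell and WT recipients of 2864 to 3102.5, with median mitochondrial shares of 0.81% to 0.83% against 0.85% to 0.935%. All 6 T cell markers were present, with Cd4 higher in KO recipients (log2 fold change 0.63, edgeR adjusted p = 8.75e-07), Trbc2 lower (-0.38, adjusted p = 0.00926) and the other 4 not called. Summed markers of other cells were low: 1.65 to 10.2 CPM in KO and 13.0 to 27.3 CPM in WT recipients for the 2 B and plasma cell markers in the table, and 4.06 to 10.0 against 11.3 to 56.2 CPM for Cd8a and Cd8b1. Myeloid markers (5 of 8 in the table) summed to 113 to 153 against 145 to 155 CPM, and epithelial markers (5 of 6) to 10.3 to 26.8 against 13.8 to 25.6 CPM. The NK marker Klrb1c, the 1 of 3 in the table, was at 0.428 to 2.74 against 2.26 to 6.25 CPM. Single markers of these lists that passed were all lower in KO recipients: Igkc (-3.54, adjusted p = 7.02e-05), Cd8a (-3.44, adjusted p = 5.59e-05), the keratin Krt18 (-1.89, adjusted p = 0.000132), Klrb1c (-1.58, adjusted p = 0.0134) and Cst3 (-0.21, adjusted p = 0.0476). The epithelial markers Epcam (1.23, adjusted p = 0.0770) and Cdh1 (1.17, adjusted p = 0.0615) had values in the other direction and did not pass. Cd8b1, at 1.80 to 3.53 against 1.46 to 6.22 CPM, did not pass (-0.09, adjusted p = 0.893), so Cd8a carried the difference of their sum. Cst3, at 105 to 145 against 133 to 141 CPM, made up most of the myeloid sum, with Lyz2 at 1.49 to 6.09 against 3.63 to 7.39 CPM. Whether the UMIs of these markers came from other cells was not tested. Bcl6 itself stood at 65.8 to 91.3 CPM in KO and 48.4 to 69.6 CPM in WT recipients. The counts therefore do not check the genotype labels, and directions refer to those labels.

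Over all CD4 cells, the stress-inducible chaperones were lower in KO recipients, while 1 of 14 ER, 1 of 8 mitochondrial and none of 7 chaperonin members passed the test. Of the 71 members tested, 10 were lower and 2 higher at an adjusted p under 0.05, with edgeR's quasi-likelihood test and Benjamini-Hochberg adjustment over 9861 genes. That is 16.9% of members, against 14.2% of all genes tested, so the members as a whole lie near the background. By direction, 7.21% of all genes were lower and 7.04% higher. Hspa1a and Hspa1b, whose reads can hardly be told apart, count as 2 members in these and the following counts. The inducible class stood apart in its counts: 5 of 7 were lower and all 7 had negative log2 fold changes. Their median was -0.59, against 0.00 for all genes tested. The members were chosen with earlier results of these data known, and some roles were assigned after the table was read. These class counts are therefore a description. Bag2 (24 UMIs in KO and 42 in WT recipients), Cct6b (33 and 21) and Dnajc27 (66 and 76) did not pass the filter on low counts. These p-values measure the spread between mice of 1 experiment.

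Hspa1a and Hspa1b, the strictly stress-induced cytosolic HSP70 genes, had the largest called falls after Hspb1. Hspa1a stood at 236, 363 and 590.0 CPM (lowest, median and highest of 6) in KO and 554, 717 and 1175 CPM in WT recipients. Its log2 fold change was -1.13 ± 0.21 (SE, adjusted p = 0.00169). The groups overlapped by 1 animal, KO recipient 4, which was above the lowest WT recipient.

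Hspa1b stood at 320, 499 and 717 CPM against 757, 918 and 1553 CPM, with no overlap. Its log2 fold change was -1.10 ± 0.19 (adjusted p = 0.00128). KO recipients 1 and 2 were the lowest of all 12 for both genes, and WT recipient 5 the highest.

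Dnajb1, the J-domain partner induced together with HSP70, stood at 207, 241 and 245 CPM in KO recipients and 273, 336 and 463 CPM in WT recipients. The groups did not overlap, and the log2 fold change was -0.59 ± 0.11 (adjusted p = 0.00135). Hsp90aa1, the inducible HSP90, was at 530.4, 601 and 675 CPM against 583, 688 and 918 CPM, and here the groups overlapped. Its log2 fold change of -0.29 ± 0.09 was close to the threshold (adjusted p = 0.0400). It missed the threshold when any of KO recipients 1 to 5 or WT recipients 3, 4 or 5 was left out, with adjusted p between 0.0544 and 0.0819.

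The other inducible genes did not pass. Hsph1, the HSP110 exchange factor, was at 100.4, 153 and 244 CPM in KO and 188, 210 and 324 CPM in WT recipients (log2 fold change -0.47 ± 0.17, adjusted p = 0.0809). Without KO recipient 6, which had its highest level in that group, the value was -0.62 with an adjusted p of 0.0107. Bag3, which links HSP70 to the clearance of damaged proteins, had medians of 29.0 and 27.7 CPM (log2 fold change -0.13 ± 0.13, adjusted p = 0.574).

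Hspb1 had the largest fold change of the 74 but few molecules. It stood at 0, 0.460 and 2.13 CPM in KO recipients and at 2.41, 6.85 and 16.2 CPM in WT recipients, without overlap. The log2 fold change was -3.36 ± 0.59 (adjusted p = 0.00116). This rests on 249 UMIs in 52 cells, 21 UMIs in KO and 228 in WT recipients, and 7 cells with at least 10 UMIs each held 135 of them.

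The cells with Hspb1 were mostly cytotoxic and cycling cells of WT recipients, at 28 and 10 of the 52. An Hspa1a or Hspa1b UMI was found in 44 of the 52 cells (84.6%), against 31.8% of all cells, with median depths of 3158 and 2772 UMIs. That baseline was not matched by cluster, and such a UMI was more common in these 2 clusters. Among cytotoxic cells 1997 had one and 1858 had none, and among cycling cells 537 and 651. None of the 52 had a UMI of the epithelial markers Epcam, Krt8, Krt18 or Krt19, which allows a share of up to 5.77% (3 of 52 cells). That limits cells with a UMI of these markers, not cells that express them.

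**Figure D1:**
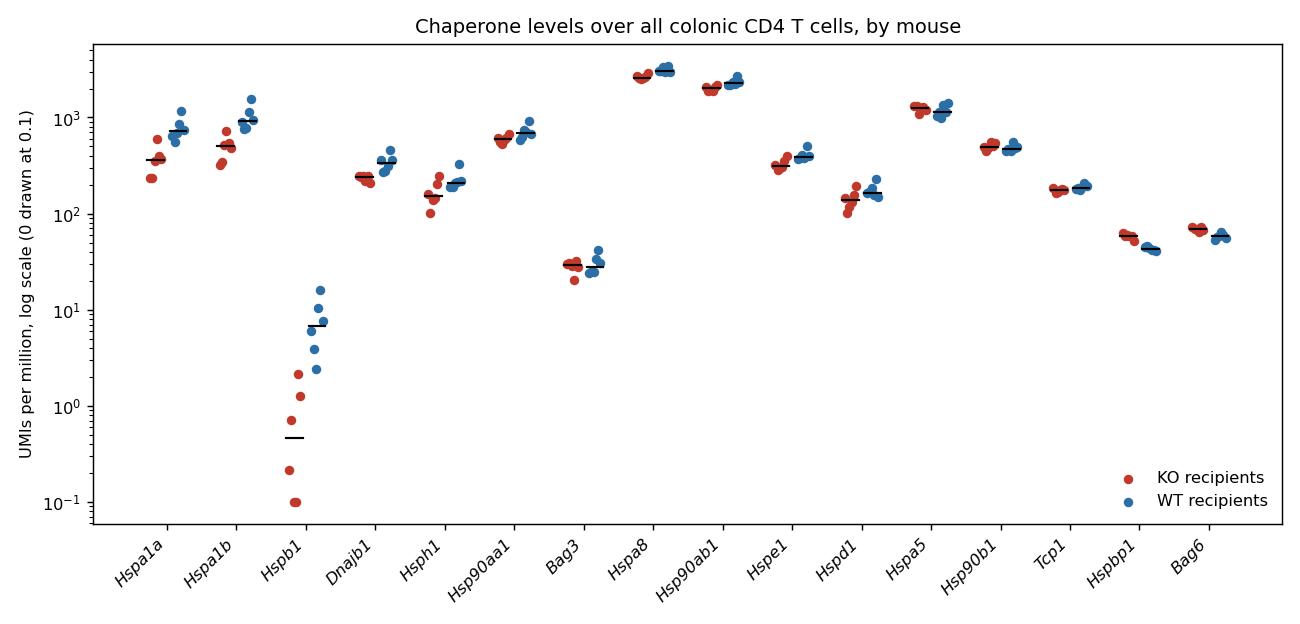
Levels of 16 chaperone genes over all CD4 T cells, in CPM on a log axis, with 1 point per mouse (red KO recipients, blue WT recipients, 6 each), a black line at the median, and mice without a UMI drawn at 0.1. Points separate for Hspa1b, Hspb1, Dnajb1, Hspa8, Hspbp1 and Bag6, while those of Hspa5, Hsp90b1, Bag3 and Tcp1 overlap.

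Among the constitutive cytosolic chaperones, the 2 most abundant, Hspa8 and Hsp90ab1, were modestly lower, and Hspbp1 and Bag6 were higher. Of 27 tested, 2 fell and 2 rose, which is 14.8% called, near the 14.2% of all genes. Hspa8, the constitutive HSP70 and the most abundant member, stood at 2485, 2604 and 2894 CPM in KO recipients and 2972, 3041 and 3448 CPM in WT recipients. No mouse overlapped, and the log2 fold change was -0.29 ± 0.05 (adjusted p = 0.000495). Hsp90ab1, the constitutive HSP90, was at 1886, 2008 and 2196 CPM against 2160, 2290 and 2671 CPM (log2 fold change -0.24 ± 0.05, adjusted p = 0.00472).

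Hspbp1, which strips nucleotide from HSP70 and limits its activity, was higher in KO recipients. It stood at 52.1, 58.6 and 62.9 CPM against 40.4, 42.9 and 46.4 CPM, with no overlap (log2 fold change 0.39 ± 0.06, adjusted p = 0.000404). Bag6, a chaperone for tail-anchored and misdirected membrane proteins, was at 65.0, 68.8 and 72.3 CPM against 53.6, 57.8 and 64.6 CPM (log2 fold change 0.21 ± 0.05, adjusted p = 0.0137). Its call was lost with every cell thinned to 1500 UMIs (0.13, adjusted p = 0.336) and without KO recipients 1 and 2 (adjusted p = 0.0589). The HSP70 exchange factor Bag1 was at 0.02 and did not pass. Dnaja1, another J-domain partner of cytosolic HSP70, had medians of 448 and 462 CPM and did not pass (log2 fold change -0.14 ± 0.08, adjusted p = 0.269). The remaining cytosolic members that were tested had log2 fold changes from -0.31 to 0.41, and none passed.

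In mitochondria, 1 of 8 members fell (12.5%, against 7.21% of all genes lower). Hspe1, the lid of the HSP60 chamber, stood at 283, 309.5 and 396 CPM in KO recipients and 374, 389 and 507 CPM in WT recipients, overlapping slightly (log2 fold change -0.36 ± 0.09, adjusted p = 0.00959). Without KO recipients 1 and 2 its call was lost (adjusted p = 0.0588). Its partner Hspd1, whose gene is head to head with Hspe1 and overlaps it at the start, was at 101, 139 and 193 CPM against 150.4, 166 and 228 CPM. The log2 fold change of Hspd1 was similar at -0.35 but its error was larger at 0.13, and it did not pass (adjusted p = 0.0886). Without KO recipient 6 it was -0.46 (adjusted p = 0.0105). Hspa9, the mitochondrial HSP70, had medians of 81.2 and 74.7 CPM (log2 fold change 0.02 ± 0.10, adjusted p = 0.928), and Dnajc15, a J protein of the inner membrane, of 287 and 284 CPM (log2 fold change -0.02 ± 0.06, adjusted p = 0.880).

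In the ER, 1 of 14 members fell (7.14%, against 7.21% of all genes lower). It was Dnajc3, a J protein of the ER lumen, at 102, 109 and 115 CPM against 114, 120 and 126 CPM (log2 fold change -0.18 ± 0.05, adjusted p = 0.0165), a call lost with cells thinned to 1500 UMIs (adjusted p = 0.0523). Hspa5, the ER HSP70 known as BiP, stood at 1090, 1246 and 1324 CPM against 990.0, 1133 and 1400 CPM and did not pass (log2 fold change 0.03 ± 0.08, adjusted p = 0.829). Hsp90b1, the ER HSP90 known as GRP94, was at 452, 498 and 553 CPM against 442, 474 and 555 CPM (log2 fold change 0.03 ± 0.06, adjusted p = 0.838). The intervals of about 2 SE around these values exclude a fall as large as that of Hspa1a or Dnajb1.

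None of the 7 chaperonin subunits tested was called with edgeR, and 1 had an unadjusted p under 0.05. That subunit was Tcp1, with medians of 176 and 185 CPM (log2 fold change -0.14 ± 0.05, adjusted p = 0.0637). Hsf1, the regulator of the cytosolic response, had medians of 41.3 and 37.7 CPM and did not pass (log2 fold change 0.22 ± 0.10, adjusted p = 0.144). Among members of no class, Dnajb13, a J protein known from the sperm tail, was lower at medians of 8.52 and 15.4 CPM (log2 fold change -0.67 ± 0.16, adjusted p = 0.0110). The call was lost with cells thinned to 1500 UMIs (adjusted p = 0.156) and without KO recipients 1 and 2 (adjusted p = 0.0661). Its gene overlaps Ucp2 on the opposite strand at chr7:100501716-100514960, and the sources used here do not say whether reads were counted by strand.

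Summed over each class, the inducible members reached 1508, 1910 and 2280 CPM (lowest, median and highest) in KO recipients and 2425, 2859 and 4492 CPM in WT recipients, without overlap. The cytosolic sum, most of it Hspa8 and Hsp90ab1, was at 6244, 6551 and 6954 CPM against 6974, 7144 and 8116 CPM, also without overlap. For the chaperonin, the medians of 1233 and 1234 CPM were nearly equal. ER members summed to medians of 2223 and 2077 CPM and mitochondrial members to 934 and 1033 CPM, with overlapping groups.

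Among 4 lists of folding genes outside the symbol rule, calls were found in the ER list only. Of 18 HSP70 and HSP90 co-chaperones none was called with edgeR and 8 had an unadjusted p under 0.05, with a median log2 fold change of -0.05. Cacybp (-0.29 ± 0.09, adjusted p = 0.0514) and Chordc1 (-0.21 ± 0.08, adjusted p = 0.0716) were among them. No gene of 11 for mitochondrial folding and proteases, and none of 6 prefoldin subunits, was called with edgeR, with 2 and 2 at an unadjusted p under 0.05. Of 17 genes of ER folding and the unfolded protein response, 3 fell and 1 rose, which is 23.5% called against 14.2% of all genes. The disulfide isomerase P4hb fell by 0.22 on the log2 scale, the lectin chaperone Canx by 0.21 and the prolyl isomerase Ppib by 0.21. Atf4, the transcription factor of the integrated stress response, rose by 0.24 (adjusted p = 0.0323).

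Of 9 other genes that respond to heat or stress 3 rose (33.3%, against 7.04% of all genes) and none fell (against 7.21%): Atf3, a stress-induced repressor (2.09 ± 0.40, adjusted p = 0.00220), Gadd45b (0.42 ± 0.09) and Ier5 (0.37 ± 0.05). Among 12 immediate early genes known to respond to tissue dissociation, Jun (log2 fold change -0.999 ± 0.15, adjusted p = 0.000306) and Zfp36 (-0.38 ± 0.07) fell and Junb (0.34 ± 0.10) rose, which is 25% called against 14.2% of all genes. The part of dissociation, depth, the mitochondrial share or the marker differences given above in the fall of the inducible genes was not tested.

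The level of the inducible genes differed widely between the 7 cell clusters of the authors' annotation, which are recirculating, cytotoxic, Th17, cycling and regulatory cells and the clusters unnamed 1 and unnamed 3, given only a general CD4 label. As a description, Hspa1a in WT recipients had a median of 1689 CPM in cytotoxic and 1653 CPM in cycling cells, 1127 CPM in regulatory cells (3 mice), 360 CPM in unnamed 3, 164 CPM in unnamed 1, 162 CPM in Th17 and 134 CPM in recirculating cells. Ranges of the first 3 overlapped, and so did those of the last 4. The lowest cytotoxic mouse, at 1127 CPM, was above the highest mouse of unnamed 3, at 495 CPM. Hspa8 in WT recipients was also highest in cytotoxic and cycling cells (medians of 3889 and 3767 CPM), and it was lowest in Th17 cells (2517 CPM). The ER gene Hspa5 had another order, highest in Th17 cells (1642 CPM) and lowest in cycling cells (899 CPM).

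**Figure D2:**
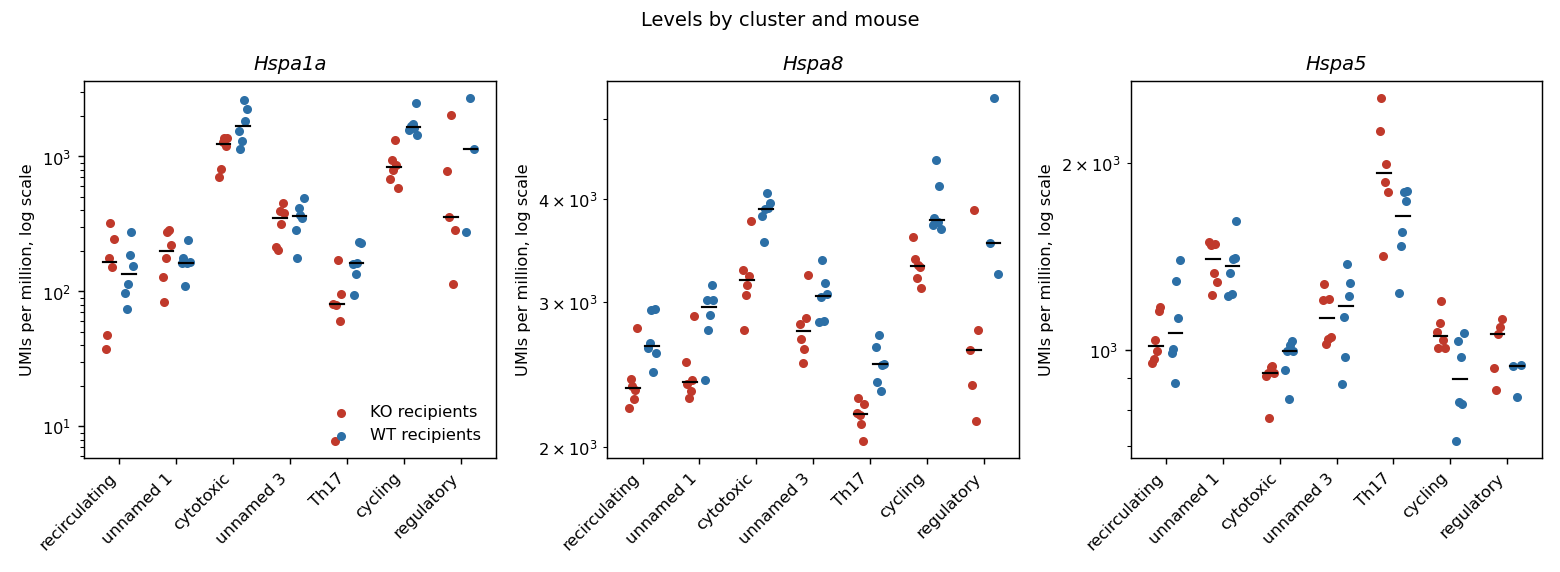
Levels of Hspa1a, Hspa8 and Hspa5 by cluster, in CPM on a log axis, with 1 point per mouse having at least 20 cells of the cluster (red KO recipients, blue WT recipients) and a black line at the median. Hspa1a spans from 134 to 1689 CPM between the medians of WT recipients, and Hspa8 from 2517 to 3889 CPM.

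Cytotoxic cells, 1 of the 2 clusters with the highest Hspa1a, were a smaller part of the cells in KO recipients, while the share of cycling cells was similar. Cytotoxic cells made up a median of 9.35% of all cells in KO recipients and 33.9% in WT recipients, and held 26.4% and 59.9% of the Hspa1a and Hspa1b UMIs. Cycling cells made up 5.87% and 5.64% of the cells and held 23.2% and 22.3% of these UMIs. Clusters with lower Hspa1a also differed in size, with medians of 34.1% and 7.89% of the cells for unnamed 1, 24.8% and 7.34% for unnamed 3, and 5.41% and 17.6% for Th17 cells. When every cluster was given the same weight in each mouse, the log2 fold change of Hspa1a was -0.66 (adjusted p = 0.0118) in place of -1.13, that of Hspa1b -0.60 (adjusted p = 0.0143) in place of -1.10, and that of Dnajb1 -0.25 (adjusted p = 0.0480) in place of -0.59. Of the 12 called members 9 remained, while Hsp90aa1 (-0.16, adjusted p = 0.180), Hspe1 (-0.19, adjusted p = 0.139) and Dnajc3 (-0.09, adjusted p = 0.322) did not pass. Hspa8 was at -0.27 and Hspbp1 at 0.35 with this weighting, close to their values over all cells.

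**Figure D3:**
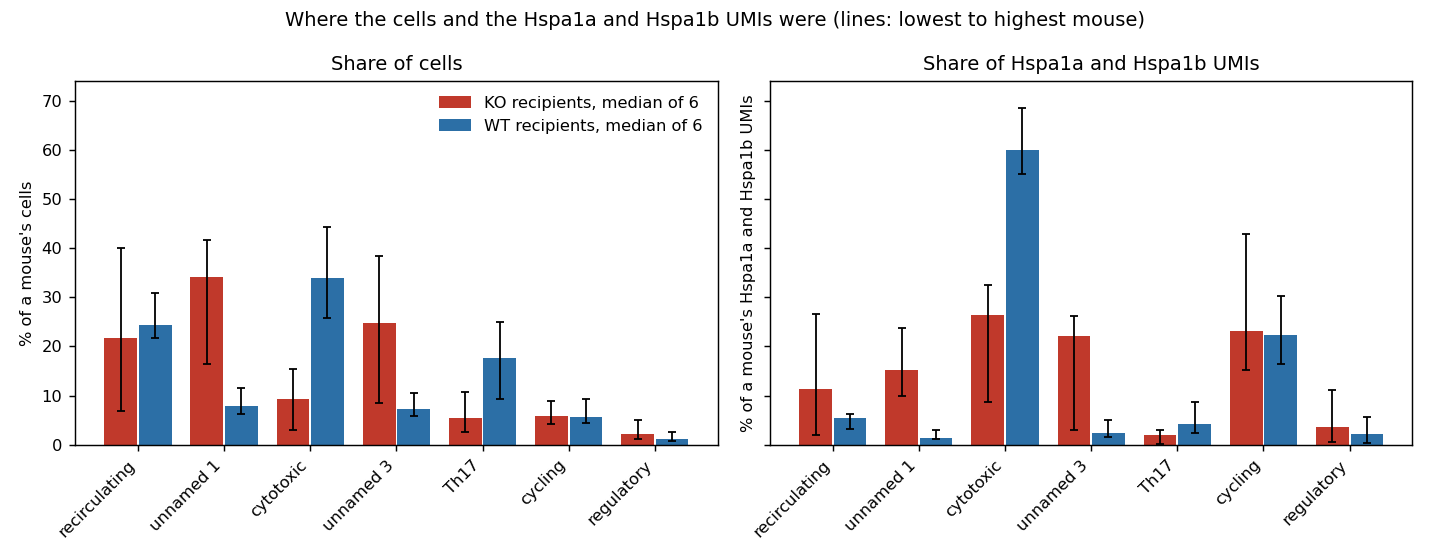
Share of each mouse's cells (left) and of its Hspa1a and Hspa1b UMIs (right) in each cluster, in percent, as bars at the median of 6 mice with lines from the lowest to the highest mouse. Cytotoxic cells of WT recipients held 59.9% of these UMIs with 33.9% of the cells.

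Within clusters, Hspa8 was lower in KO recipients in all 7 and called in 6, while inducible genes passed in cytotoxic, Th17 and cycling cells. In recirculating cells 1 of 61 members tested was called, against 5.48% of all genes (3.3% lower, 2.17% higher). In unnamed 1 cells it was 1 of 56, against 4.65% (2.9% lower, 1.75% higher), and in unnamed 3 cells 1 of 45, against 8.42% (5.33% lower, 3.09% higher). The gene was Hspa8 each time, with log2 fold changes of -0.23 ± 0.05 (adjusted p = 0.00589), -0.27 ± 0.06 (adjusted p = 0.0103) and -0.20 ± 0.06 (adjusted p = 0.0233). None of the 6 inducible members tested passed in these 3 clusters with edgeR, none had an unadjusted p under 0.05, and their median log2 fold changes were 0.17, 0.17 and 0.07. The call of Hspa8 in unnamed 3 was lost without WT recipient 5 (adjusted p = 0.0617).

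In cytotoxic cells, 4 of 58 members were called, against 2.89% of all genes (1.58% lower, 1.32% higher). Hspa8 was lower, at a log2 fold change of -0.32 ± 0.06 (adjusted p = 0.00256). Hspa1a stood at 708, 1232 and 1376 CPM in KO and 1127, 1689 and 2606 CPM in WT recipients (-0.67 ± 0.16, adjusted p = 0.01999). Hspa1b moved alike at -0.58 ± 0.14 (adjusted p = 0.0185). Both lost their call without KO recipients 1 and 2, at adjusted p = 0.151 for each, and with DESeq2's test, at adjusted p = 0.0743 and 0.0680. Hspbp1 was higher at 0.68 ± 0.15 (adjusted p = 0.00655), with medians of 62.9 and 38.9 CPM and no overlap. Dnajb1 had medians of 538 and 876 CPM and did not pass (-0.50 ± 0.14, adjusted p = 0.0625).

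Cycling cells had the most calls, with 7 of 51 members lower and none higher, against 5.36% of all genes (2.92% lower, 2.44% higher). Hspa1a stood at 584, 832 and 1333 CPM against 1452, 1653 and 2502 CPM, with no overlap (-1.08 ± 0.15, adjusted p = 4.06e-05). Hspa1b was at -1.06 ± 0.17 (adjusted p = 0.000271). The other 5 were Hsph1 (-0.58), Hspe1 (-0.45), Hsp90aa1 (-0.37), Hspa8 (-0.30) and Hsp90ab1 (-0.25). Without KO recipients 1 and 2, the calls of Hsph1, Hspe1 and Hsp90aa1 were lost (adjusted p = 0.0991, 0.122 and 0.0751), and without WT recipient 5 those of Hsph1 and Hspe1 (adjusted p = 0.0557 and 0.0564). In these cells the inducible sum was at 2638, 3289 and 4486 CPM against 4927, 5475 and 7629 CPM, without overlap.

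In Th17 cells, 4 of 52 members were lower, against 5.09% of all genes (2.57% lower, 2.52% higher). Hspa1a was at 7.84, 80.1 and 171 CPM against 94.7, 162 and 233 CPM (-0.93 ± 0.26, adjusted p = 0.0350), far below its level in cytotoxic cells. Hspa8 (-0.24 ± 0.06), Hsp90ab1 (-0.23 ± 0.06) and Dnajc15 (-0.30 ± 0.09, adjusted p = 0.0497) were the others. KO recipients had 44 to 178 Th17 cells each and WT recipients 137 to 391, so the lowest level of Hspa1a rests on few UMIs. Without WT recipient 5 the calls of Hspa1a (adjusted p = 0.0703), Hsp90ab1 (0.0585) and Dnajc15 (0.113) were lost. With DESeq2's test Hspa1a was at an adjusted p of 0.192 and Dnajc15 of 0.0726. In regulatory cells, with 5 KO and 3 WT recipients, 1 of 25 members was called, against 0.513% of all genes (0.342% lower, 0.171% higher). That was Hsp90ab1 (-0.60 ± 0.13, adjusted p = 0.0404). Its call was lost when 1 mouse was left out, if that was KO recipient 1, 2, 5 or 6 or WT recipient 4 or 6. None of the 5 inducible members tested there passed with edgeR, but all 5 had negative log2 fold changes, with a median of -0.92. Of these, 4 had an unadjusted edgeR p under 0.05. The inducible sum was at 1188, 1903 and 6268 CPM in KO and 1601, 5994 and 11240 CPM in WT recipients, with overlap.

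**Figure D4:**
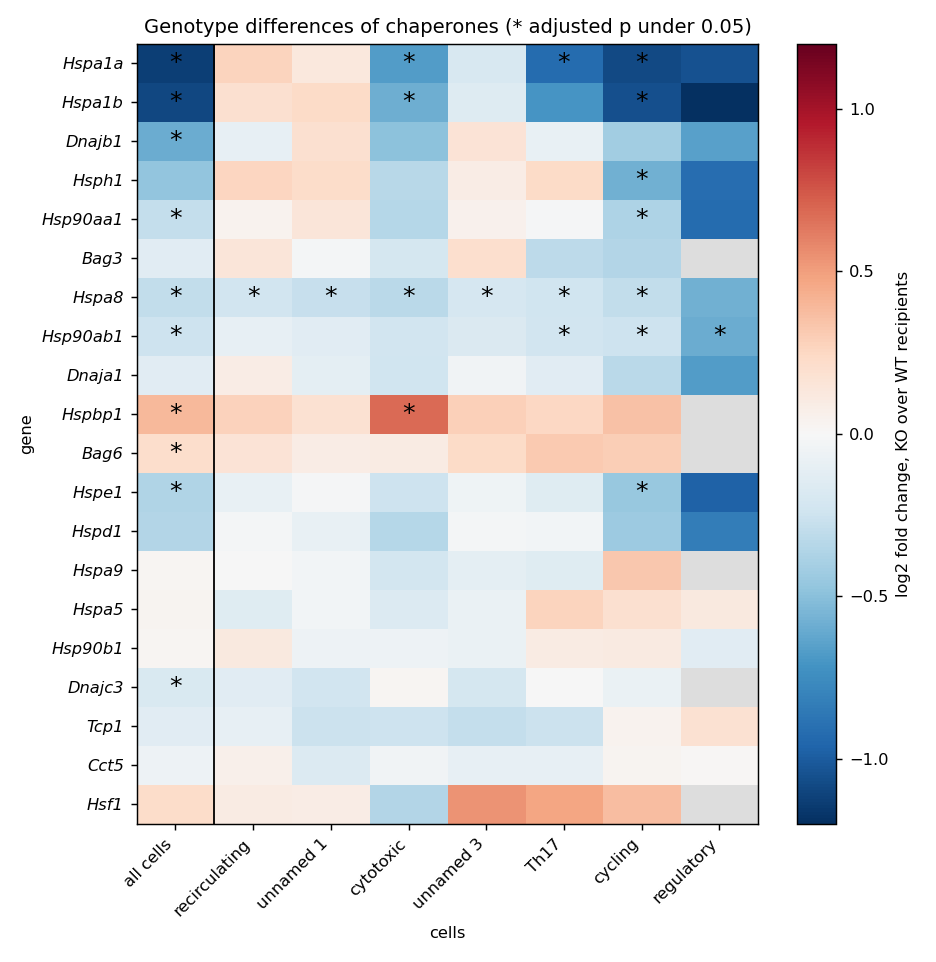
Log2 fold changes, KO over WT recipients, of 20 chaperone genes over all cells and in each cluster (blue lower, red higher, grey not tested), with asterisks at an edgeR adjusted p under 0.05. Hspa8 carries an asterisk in 6 of the 7 clusters, and Hspa1a in cytotoxic, Th17 and cycling cells.

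The difference between clusters was tested directly, with limma on the difference between a cluster and recirculating cells within each mouse. None of the members passed for cytotoxic (58 tested), Th17 (52), unnamed 1 (55) or unnamed 3 (45) cells, where 0%, 0%, 0% and 0.0708% of all genes did. At an unadjusted p under 0.05 there were 9, 7, 2 and 1. For Hspa1a the difference was -0.53 ± 0.36 in cytotoxic cells (adjusted p = 0.690) and -1.18 ± 0.43 in Th17 cells (adjusted p = 0.446). That the inducible genes fell more in some clusters than in recirculating cells was therefore not shown, and cycling cells were not among the clusters compared this way.

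The UMIs of Hspa1a and Hspa1b were concentrated in few cells. The 10% of cells with the most held a median of 86.7% of these UMIs in KO and 83.1% in WT recipients. With each cell thinned to 1500 UMIs, Hspa1a was found in 13.9% ± 2.83 of cells of KO and 19.6% ± 5.33 of WT recipients (SD, n = 6 each, two-sided exact permutation p = 0.0303, adjusted p = 0.0823 over 6 genes). Without thinning the shares were 17.6% and 24.5% for Hspa1a, 37.3% and 40.7% for Dnajb1, and 66.1% and 69.1% for Hsp90aa1. Dnajb1 was found in 24.2% ± 2.27 and 26.9% ± 2.04 (exact p = 0.0628, adjusted p = 0.0942), and Hsp90aa1 in 48.4% ± 3.02 and 49.0% ± 4.71 (exact p = 0.792). No gene of the 6 passed after adjustment at this depth. No cell type here is known to lack these genes, so the share given by free RNA could not be set.

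Within clusters, the number of UMIs in positive cells and the share of positive cells were compared for Hspa1a and Hspa1b together, a comparison chosen after the values above were seen. At 1500 UMIs per cell, 50.6% ± 5.24 of cytotoxic cells of KO and 46.3% ± 7.86 of those of WT recipients were positive (exact permutation p = 0.275, n = 6 each). Positive cytotoxic cells held a mean of 8.20 ± 2.03 and 13.7 ± 1.84 UMIs (SD, exact permutation p = 0.00216, adjusted p = 0.0152 over 14 tests, no overlap). In cycling cells the share passed, at 27.3% ± 3.89 against 42.4% ± 3.65 (exact permutation p = 0.00216, adjusted p = 0.0152). The mean UMIs of positive cycling cells were also lower in KO recipients, at 11.2 ± 2.69 and 14.1 ± 2.51, but did not pass (exact permutation p = 0.0866, adjusted p = 0.303). Whether cytotoxic and cycling cells differed in this respect was not tested. Without thinning, medians of 45.4% and 48.8% of cytotoxic cells, and of 62.5% and 46.0% of cycling cells, had no such UMI. The lowest positive shares were in Th17 cells, at medians of 9.99% and 13.7%.

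Cells with an Hspa1a or Hspa1b UMI carried more of some chaperones and not of others. The comparison was made within each mouse and cluster, among members with a mean of at least 50 CPM, and is given as a description without a test. In cytotoxic cells, Hsph1 was 6.06 times as high in cells with such a UMI (median of 12 mice, 2.48 to 23.3), Dnajb1 5.90 times (3.27 to 9.84) and Hsp90aa1 3.24 times (1.42 to 6.43). Hspe1 was at 2.40 times, Dnaja1 at 2.38, Hspd1 at 2.17, Hsp90ab1 at 1.68 and Hspa8 at 1.48 times. By contrast, Hspa5 was at 0.829, Hsp90b1 at 0.868, Cct5 at 0.879 and Tcp1 at 1.02 times.

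Over the 2869 genes compared in cytotoxic cells the median ratio was 0.981, and 1.22% of genes were above 1.5. Hsph1 ranked 1 and Dnajb1 2, followed by Jun at 3.73 times. Cytotoxic cells with such a UMI had a median of 2264.5 UMIs and those without 2477.5, so the positive cells were not the deeper ones. Recirculating cells had the same leading genes at smaller ratios, with Hsph1 at 3.41, Dnajb1 at 2.18 and Hsp90aa1 at 1.89 times, and with Hspa5 and Hsp90b1 both at 0.97 times. In cycling cells Hsph1 was at 14.02, Dnajb1 at 4.09 and Hsp90aa1 at 3.52 times, and Hspa5 at 1.05 times.

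**Figure D5:**
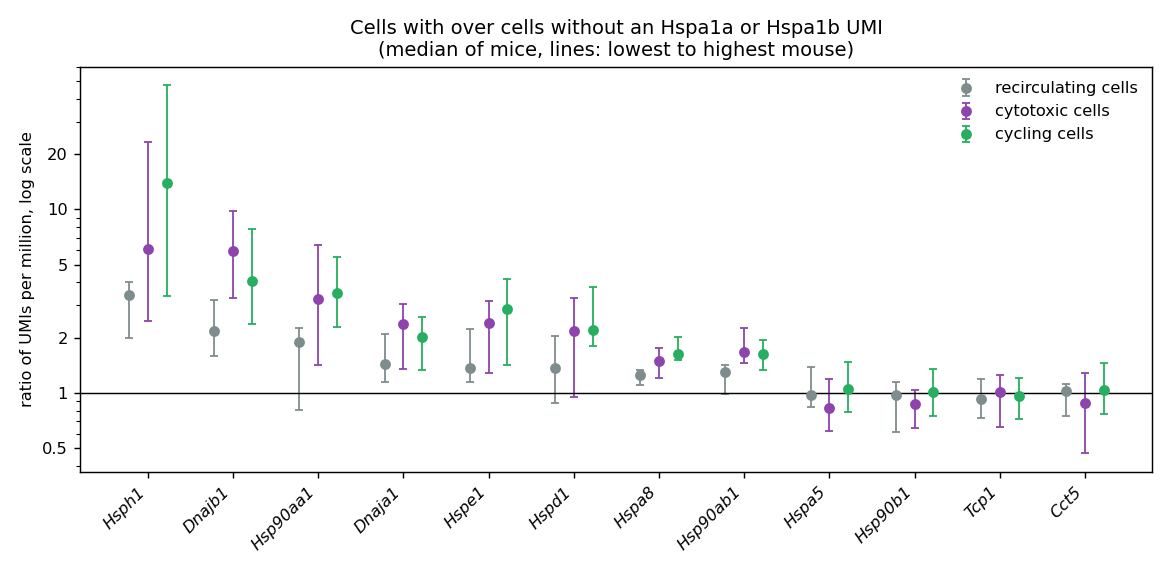
Ratio of the level in cells with an Hspa1a or Hspa1b UMI to that in cells without one, on a log axis, for 12 chaperone genes in 3 clusters. Points are medians over mice with lines from the lowest to the highest mouse, and the points of Hsph1 in cytotoxic cells (6.06) and cycling cells (14.02) are far above 1 while those of Hspa5, Hsp90b1, Tcp1 and Cct5 lie near 1.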

How the data were processed

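The submitters' processing notes name Cell Ranger 3.1.0 and Seurat 3.1.5, with no order of steps. The authors deposited raw UMI counts per gene and cell, and an annotation with the mouse, genotype and cluster of each cell, its doublet score and its mitochondrial UMIs in percent. The sources used here do not give the cell filter. Doublets were not called again (deposited doublet score at most 0.354). The deposited genotype matched the hashtag table in all 18860 cells. In all, 0 columns of other samples were found.

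For each mouse, counts were summed over all cells and within each cluster that had at least 20 of its cells. The sums were tested in R 4.3.3 by edgeR 4.0.16 (TMM, filterByExpr, quasi-likelihood F test, Benjamini-Hochberg over all genes tested, threshold 0.05). SE is the size of the log2 fold change over the square root of F. Cluster effects were compared with limma 3.58.1 (prior count 2). Shares used exact permutation tests over 924 assignments, with a smallest p of 0.00216. Thinning to 1500 UMIs left out 491 and 407 cells of KO and WT recipients. The edgeR fits were first tested on simulated counts with 200 genes changed 2-fold. The limma fit was tested only with a larger change, so its recovery of 2-fold differences was not tried. Gene positions are from GENCODE M21 (GRCm38), with 74 of 74 symbols matched.

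The members and lists were chosen with earlier results of these data known, and the roles of 7 members were assigned after the table was read. Named genes were the inducible members, the most changed called members of each class and cluster (3 and 2 per direction), the 8 most abundant, Hsf1 and the main compartment members. The alternatives were DESeq2 1.42.0 and its size factors, no low-count filter, equal cells, clusters weighted alike, no cycling cells, other thinning, at least 50 cells, a prior count of 0.5, and mice left out.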

Additional observations from a re-analysis of the deposited data

Results flagged for a closer look

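WT recipient 5 stood apart from the other WT recipients for several members over all cells, by the gap to its nearest neighbour relative to the range of the group. It was at 324 CPM for Hsph1 (the others 188 to 217), 507 CPM for Hspe1 (374 to 405), 2671 CPM for Hsp90ab1 (2160 to 2337) and 596 CPM for Dnaja1 (417 to 484). Its mitochondrial class sum was 1243 CPM (1007 to 1064). Among KO recipients, mouse 4 was low for Bag3 at 20.5 CPM (the others 27.9 to 31.8), and mouse 3 was low for the ER class sum at 2020 CPM (2192 to 2282). Of 56 groups of 6 values examined, 7 were flagged this way, and chance flags about 1 in 20. Values without WT recipient 5 are given where a call depends on it.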

How the results depend on the processing

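Over all cells, 8 to 14 members were called under every alternative run, against 12, with 11 to 14 when 1 mouse was left out and 8 without KO recipients 1 and 2. With every cell thinned to 1500 UMIs, Bag6, Dnajc3 and Dnajb13 lost their call. Without KO recipients 1 and 2, Hsp90aa1, Hspe1, Bag6 and Dnajb13 did. Hspb1 had too few counts without cycling cells and after thinning.

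Some members near 0 that were not called changed sign. With clusters weighted alike, Hspa5 was at -0.0081 and Hspa9 at -0.018. Without cycling cells Hspa9 was at -0.012. Without KO recipients 1 and 2, Hspa5 was at -0.014, Dnajc15 at 0.052 and Hspa9 at -0.086. With 1 mouse left out, Hspa5 ranged from -0.011 to 0.090, Hsp90b1 from -0.00038 to 0.070, Dnajc15 from -0.050 to 0.012 and Hspa9 from -0.038 to 0.077.

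Within clusters, the count of calls moved as follows. Without a low-count filter it was 8 in cytotoxic, 0 in unnamed 3 and 5 in regulatory cells. With DESeq2's test it was 2 in cytotoxic, 2 in Th17, 0 in unnamed 3 and 0 in regulatory cells. Without KO recipients 1 and 2 it was 2 in unnamed 1, 2 in cytotoxic, 2 in Th17, 0 in unnamed 3 and 0 in regulatory cells. Without WT recipient 5, an alternative chosen after seeing the data, it was 0 in unnamed 3 and 1 in Th17 cells. Leaving out 1 mouse in regulatory cells gave 0 to 4. The cause of these moves was not tested.

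For the share of cells with a UMI, KO minus WT in percentage points, thinning to 500 UMIs gave -5.50 for Hspa1a, -6.04 for Hspa1b, -2.39 for Dnajb1 and -0.20 for Hspb1 (each adjusted exact permutation p = 0.0130). Without thinning, Hspa1a was at -6.86 and Dnajb1 at -3.43 (each adjusted exact p = 0.0390), and Hspb1 at -0.39 (adjusted exact p = 0.0130). These 7 passed, unlike those at 1500 UMIs. At 1500 UMIs without KO recipients 1 and 2, no gene passed either. Hspa1a was then at -4.00 (adjusted exact p = 0.267), Hspa1b at -3.65 (0.271) and Dnajb1 at -3.62 (0.114). Hspb1 was at -0.23 (adjusted exact p = 0.143) and Hsph1 at -0.41 (0.876).

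No paired analysis was possible because the hashtag numbers of the mice run on across genotypes and pair no KO with a WT recipient. At least 50 cells per mouse was not run for regulatory cells, where too few mice had them. Few UMIs (249) limit Hspb1, and few cells limit regulatory cells (380 over all mice, of which only those of 5 KO and 3 WT recipients were tested).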
